A study of Mus musculus with 26 samples.

Results

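Vitamin C and glucose enter T cells through membrane carriers, and 4 transcripts of such carriers were followed here: Slc23a2, Slc2a1, Slc2a3 and Slc2a6. They were chosen by gene symbol, are 4 of the 21761 genes in the deposited tables, and passed the filter on low counts in every fit. Slc23a2 encodes SVCT2, a sodium-coupled carrier of ascorbate, the reduced form of vitamin C. Slc2a1 and Slc2a3 encode the facilitative glucose carriers GLUT1 and GLUT3, which also take up dehydroascorbate, the oxidised form of vitamin C. Slc2a6 encodes GLUT6, a relative found mainly on internal membranes.

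Inside the cell dehydroascorbate is reduced back to ascorbate, a cofactor of iron-dependent dioxygenases such as the TET enzymes, which oxidise 5-methylcytosine in DNA. T cells raise glucose uptake and glycolysis when they are activated. Mice make vitamin C in the liver, so their T cells in the body are supplied from blood, while cultured cells have what the medium holds.

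The study measured polyadenylated RNA of CD4+ T cells from C57BL/6 mouse spleen and lymph nodes in 26 libraries. The question addressed was how vitamin C and TET enzymes shape regulatory T (Treg) cells, which are defined by the transcription factor Foxp3. Tet2/3-deficient Treg cells (n = 4) came from 3-week-old mice that carried CD4-Cre, the floxed alleles Tet2fl/fl and Tet3fl/fl, and a Foxp3-eGFP reporter. Their control Treg cells (n = 4) came from 3-week-old mice with the same floxed alleles and reporter but no CD4-Cre, and both were sorted as CD4+eGFP+. CD4-Cre acts in all cells that pass through the CD4-expressing thymic stage, not in Treg cells alone. All other cells came from Foxp3-eGFP reporter mice. At 5 to 6 weeks of age these gave induced Treg (iTreg) cultures with TGFβ, retinoic acid (RA) and vitamin C (VitC) together, with TGFβ and VitC, with TGFβ and RA, or with TGFβ alone. They also gave Th0 cells, activated with anti-CD3/CD28, and naive CD4+eGFP-CD25-CD62LhiCD44lo cells, with n = 2 in each of these 6 groups. A second table, from mice of 12 to 14 weeks, holds Foxp3-negative cells sorted on day 6 after anti-CD3/CD28 restimulation of TGFβ iTreg cells (n = 3) and Foxp3-positive TGFβ iTreg cells sorted on day 6 (n = 3).

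Library totals were 9647669 to 11640223 counts for cultured and naive cells, 13397602 to 17672302 for Treg cells sorted from mice, and the second table had 11293704 to 17219805. Foxp3 was at 540 to 973 CPM (the count scaled to the library total) in the iTreg groups of the first table and at 542 to 737 CPM in ex vivo Treg cells, against 15.5 to 26.3 CPM in Th0 and naive cells. Whole-gene counts of Tet2 and Tet3 do not resolve the floxed exons and so check nothing about the deletion: Tet2 was at 12.0 to 16.5 CPM in Tet2/3-deficient cells and at 9.96 to 15.7 CPM in control cells, and Tet3 was at 96.3 to 114 CPM in Tet2/3-deficient cells and at 126 to 172 CPM in control cells, with no overlap. The labels do not say whether replicates came from separate animals or cultures, so p-values measure the spread between these libraries, which may be technical. The Th0 libraries stood apart from each other for the glucose carriers, with 2.23 times as much Slc2a3 and 1.47 times as much Slc2a1 in replicate 2 as in replicate 1. All 15 hypoxia-response genes averaging at least 1 CPM in these libraries were also higher in Th0 replicate 2, with a median ratio of 1.54, against 1.01 over all genes of at least 10 CPM.

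The promoter windows of Slc2a1 and Slc2a6 are shown because these transcripts changed most often across the comparisons and differ in a core motif. The 300 bases run from 250 before to 50 after the transcription start annotated by RefSeq on GRCm38.p6, and were read for ACGTG and GCGTG, the core letters bound by hypoxia-inducible factors, on both strands. Capitals mark every match.
Slc2a1, chr4:119108495-119108794, plus strand: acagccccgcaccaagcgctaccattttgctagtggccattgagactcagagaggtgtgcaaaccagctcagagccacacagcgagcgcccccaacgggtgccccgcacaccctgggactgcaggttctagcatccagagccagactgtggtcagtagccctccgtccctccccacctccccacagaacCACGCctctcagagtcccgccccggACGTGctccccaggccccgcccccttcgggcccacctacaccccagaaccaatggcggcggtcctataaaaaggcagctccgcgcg
Slc2a6, chr2:27027949-27028248, minus strand: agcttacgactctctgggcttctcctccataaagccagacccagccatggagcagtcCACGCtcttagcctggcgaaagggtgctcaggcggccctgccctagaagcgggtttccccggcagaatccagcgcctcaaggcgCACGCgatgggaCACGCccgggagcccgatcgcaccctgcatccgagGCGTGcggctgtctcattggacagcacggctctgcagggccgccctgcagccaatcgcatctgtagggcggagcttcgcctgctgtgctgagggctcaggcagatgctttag
The Slc2a1 window holds 1 ACGTG and 1 GCGTG match, which do not overlap, and the Slc2a6 window holds 4 GCGTG matches and no ACGTG. Of the 32851 RefSeq promoter windows of this length, 19.6% hold ACGTG and 32.4% hold GCGTG. The letters CACGTG, the E-box bound by Myc and MondoA family factors, which contain ACGTG, are in neither window and in 7.15% of all windows. For Slc23a2, RefSeq gives a pair of nearby start windows, with 1 GCGTG match in the one and none in the other, and no ACGTG in either. These matches describe letters only, since no binding data were used.

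Per length, the glucose carrier GLUT1 was the most abundant of the 4 transcripts in cultured cells. On the FPKM scale, which divides counts by library total and exon length, Slc2a1 averaged 35.9 ± 2.74 with TGFβ, RA and VitC, 41.4 ± 0.484 with TGFβ and VitC, 37.2 ± 1.28 with TGFβ and RA, 58.1 ± 1.2 with TGFβ alone, 86.6 ± 23.4 in Th0 cells and 18.4 ± 0.923 in naive cells (SD, n = 2 each). Over the group means of the first table, Slc2a3 FPKM ranged from 8.44 in naive cells to 31.0 in Tet2/3-deficient Treg cells, Slc23a2 FPKM from 5.87 in Th0 to 11.7 in control Treg cells, and Slc2a6 FPKM stayed between 0.0304 in naive and 1.13 in Tet2/3-deficient Treg cells. In the second table, normalized on its own, day 6 TGFβ iTreg cells averaged 64.4 FPKM of Slc2a3 and 1.19 FPKM of Slc2a6. Slc2a6 was the rarest of the 4, with 5 to 85 counts per library in every group but naive cells, where it had 0 and 2. Exons of Slc2a1 overlap those of the antisense gene Gm12868 over 105 of 3506 bases (GENCODE M21 on GRCm38), and no exon overlap with another gene was found for the others.

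**Figure D1:**
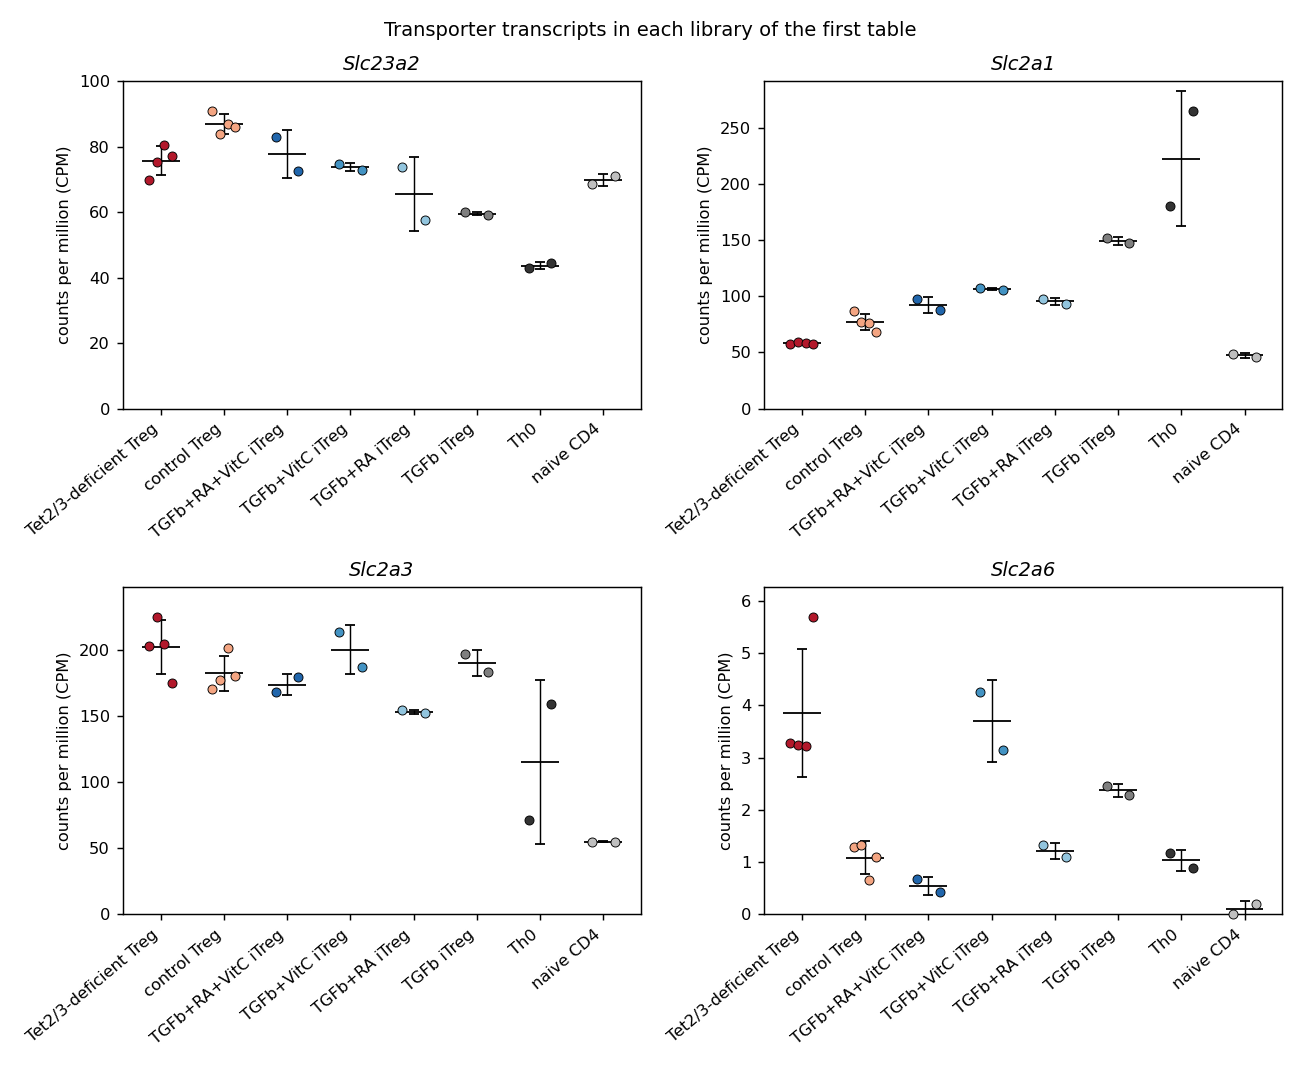
CPM (vertical axis, linear, from 0) of each carrier transcript in each library (points) of the 8 groups of the first table; horizontal bars are means and whiskers are SD. Slc2a1 sits between 57.4 and 59.0 in the 4 Tet2/3-deficient libraries, and the Th0 libraries lie at 180 and 265; Slc23a2 is lowest in Th0 cells and highest in control Treg cells.

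Tet2/3-deficient Treg cells differed from control Treg cells in 3 of the 4 carriers. Slc23a2 and Slc2a1 fell, Slc2a6 rose, and Slc2a3 did not pass the test; over all genes tested 32.5% passed, 16.7% higher and 15.8% lower. Slc23a2, the ascorbate carrier, had 69.8, 75.5, 80.5 and 77.2 CPM in Tet2/3-deficient Treg cells, against 91.0, 83.8, 86.9 and 86.2 CPM in control Treg cells. Every Tet2/3-deficient library was below every control library. The log2 fold change was -0.24 ± 0.06 (SE; edgeR adjusted p = 0.0137), a difference of 1.18-fold, and 44.5% of tested genes changed by more.

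Slc2a1, the GLUT1 gene, had 57.8, 59.0, 58.5 and 57.4 CPM in Tet2/3-deficient cells, against 86.8, 77.1, 76.1 and 68.5 CPM in control cells. The deficient libraries lay close together below a wider control range. The log2 fold change was -0.45 ± 0.08 (edgeR adjusted p = 0.00114), a 1.36-fold lower level. Slc2a3, the GLUT3 gene, had 203, 225, 204 and 175 CPM in deficient cells, against 170, 177, 201 and 180 CPM in control cells, with overlapping ranges and a log2 fold change of 0.11 ± 0.08 (95% interval -0.07 to 0.28; edgeR adjusted p = 0.336).

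Slc2a6, the GLUT6 gene, had 3.28, 3.24, 3.23 and 5.70 CPM in Tet2/3-deficient cells, against 1.29, 1.32, 0.651 and 1.09 CPM in control cells. No deficient library was as low as any control library, and library S8 was the highest. The log2 fold change was 1.79 ± 0.28 (edgeR adjusted p = 0.000772), a 3.45-fold rise, and 1.67% of tested genes changed by more. In these bulk libraries a change in the number of cells of a type and a change in RNA per cell cannot be told apart. Sums of 10 myeloid markers were 61.4 to 158 CPM in deficient cells, highest in S8, against 46 to 75.4 CPM in control cells. Every marker had counts in each group, but they did not differ alike. Itgam averaged 43.1 CPM in deficient and 9.5 CPM in control cells, and Lyz2 averaged 4.99 and 4.9 CPM. Sums of 7 B cell markers, at 47.9 to 65.5 CPM in deficient and 46.1 to 112 CPM in control cells, overlapped. So did sums of 7 erythroid and platelet markers, at 52.7 to 115 CPM and 74.2 to 196 CPM. The part of these cell types in the Slc2a6 result was not tested. Sums of 6 NK and CD8 T cell markers were 13.7 to 16.1 CPM in deficient cells, with Klra8 at 0, and 28.5 to 33.5 CPM in control cells, and sums of 4 T cell markers were 2040 to 2090 CPM in deficient cells and 2210 to 2580 CPM in control cells. Neither list overlapped between genotypes, and their part in the carrier results was not tested. Sums of 6 proliferation markers were 1030 to 1120 CPM in deficient cells and 319 to 704 CPM in control cells, highest in control S1 and S3. An alternative chosen after seeing the data left out those control libraries, the ones nearest the deficient cells in these sums. Slc23a2 then no longer passed (-0.20, edgeR adjusted p = 0.051) while Slc2a1 (-0.36, edgeR adjusted p = 0.004) and Slc2a6 (1.64, edgeR adjusted p = 0.00384) did. This kept the control libraries with the lowest sums, so it cannot show the part of proliferation, which was not tested.

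The balance of GLUT1 and GLUT3 transcripts is given as a description. The FPKM ratio of Slc2a3 to Slc2a1 was 1.37 ± 0.123 in Tet2/3-deficient cells, with a range of 1.21 to 1.51, and 0.944 ± 0.128 in control cells, with a range of 0.778 to 1.05 (SD, n = 4 each). In the other 8 groups the mean ratio was between 0.197, in Th0 cells, and 0.746, in cells with TGFβ, RA and VitC.

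**Figure D2:**
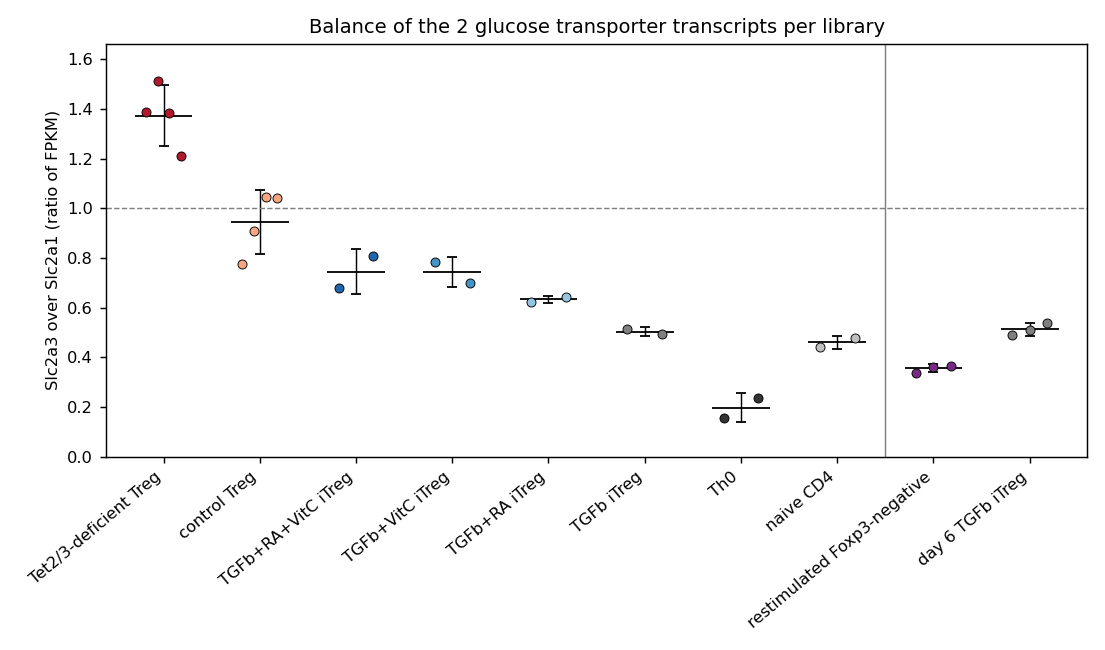
Ratio of Slc2a3 FPKM to Slc2a1 FPKM (vertical axis, from 0) in each library (points) by group, with means (bars) and SD (whiskers); the dashed line marks equal levels and the vertical line separates the second table, which was normalized on its own. The 4 Tet2/3-deficient libraries lie at 1.21 to 1.51, and the Th0 libraries lie lowest.

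Some listed regulators of glucose uptake also differed in Tet2/3-deficient cells. Of the 8 listed, 5 fell, 1 rose and 2 did not pass (median log2 fold change -0.19, against 0.00 over all genes). Over all genes tested 15.8% passed lower and 16.7% higher. Txnip, an arrestin-like protein that promotes removal of GLUT1 from the membrane, fell to 492 ± 85.3 CPM in deficient cells, against 899 ± 135 CPM in control cells (log2 fold change -0.91 ± 0.14, edgeR adjusted p = 0.00152). Its relative Arrdc4 fell by 0.99 on the log2 scale. Tbc1d4, which restrains vesicle traffic of glucose carriers in muscle and fat, also fell (-0.73 ± 0.07). Myc, a driver of glycolytic genes, rose (0.50 ± 0.06).

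Of 21 glycolysis and lactate export genes 7 rose, 4 fell and 10 did not pass in Tet2/3-deficient cells (median 0.15). Over all genes tested in this comparison 32.5% passed, 16.7% higher and 15.8% lower, which also applies to the recycling list below. Hk2, the inducible hexokinase that traps glucose in the cell, averaged 21.2 ± 2.04 CPM in deficient cells and 11.5 ± 2.72 CPM in control cells (log2 fold change 0.85 ± 0.15, edgeR adjusted p = 0.00168). Ldhb, a lactate dehydrogenase subunit, fell to 28.9 ± 4.15 CPM in deficient cells, against 86.9 ± 6.13 CPM in control cells (-1.63 ± 0.10, edgeR adjusted p = 7.16e-07). Of 11 tested genes of vitamin C recycling and synthesis only Gsto1, whose product can reduce dehydroascorbate, rose (0.41 ± 0.08), and only Cyb561d1, of the ascorbate-dependent cytochrome b561 family, fell (-0.67 ± 0.07).

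Vitamin C added to TGFβ cultures lowered Slc2a1, the 1 member of 4 that passed, where 16.8% of all genes did. Slc2a1 had 107 and 106 CPM with TGFβ and VitC, against 152 and 147 CPM with TGFβ alone. The replicates of each group differed by far less than the groups. The log2 fold change was -0.51 ± 0.13 (edgeR adjusted p = 0.0178), and the call was lost when any 1 of the 4 libraries was left out (-0.54 to -0.49, edgeR adjusted p 0.0649 to 0.0993), with 1 library then standing alone in its group.

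Slc23a2, the carrier of vitamin C itself, had 74.8 and 72.9 CPM with TGFβ and VitC, against 60.0 and 59.2 CPM with TGFβ alone. The groups did not overlap, but the difference of 0.28 ± 0.11 (95% interval 0.04 to 0.53) did not pass the adjusted test (edgeR adjusted p = 0.0968). Slc2a6 had 4.25 and 3.14 CPM with VitC, against 2.46 and 2.29 CPM without (0.61 ± 0.32, edgeR adjusted p = 0.202), and Slc2a3 had 213 and 187 CPM with VitC, against 197 and 183 CPM without (0.05 ± 0.28, edgeR adjusted p = 0.925).

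With retinoic acid added to TGFβ cultures, Slc2a1 fell and was again the only one of the 4 to pass, where 16.5% of all genes passed. Its level was 97.9 and 93.2 CPM with TGFβ and RA, against 152 and 147 CPM with TGFβ alone, a log2 fold change of -0.66 ± 0.13 (edgeR adjusted p = 0.00365). Slc23a2 was at 73.7 and 57.7 CPM with RA, a spread that overlapped the TGFβ cultures (0.13 ± 0.11, edgeR adjusted p = 0.481). Slc2a3 was at 154 and 152 CPM with RA (-0.33 ± 0.28, edgeR adjusted p = 0.486) and Slc2a6 at 1.32 and 1.1 CPM (-0.97 ± 0.38, edgeR adjusted p = 0.0997), both below the TGFβ libraries without passing. In all comparisons among the iTreg cultures, the SE of Slc2a3 came from the fit of 12 libraries. There its Th0 replicates differed 2.23-fold, while its iTreg replicates differed 1.02- to 1.14-fold. Slc2a3 was not tested among the iTreg cultures without the Th0 libraries, so its missed calls there may reflect the Th0 spread.

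With vitamin C and retinoic acid together, 3 of the 4 members passed against TGFβ alone, where 37.5% of all genes did. Slc2a1 fell to 97.4 and 87.5 CPM with TGFβ, RA and VitC (log2 fold change -0.72 ± 0.13, edgeR adjusted p = 0.000713). Slc2a6 fell to 0.673 and 0.430 CPM, or 7 and 5 counts (-2.13 ± 0.44, edgeR adjusted p = 0.00161). Slc23a2 rose to 82.9 and 72.6 CPM (0.35 ± 0.11, edgeR adjusted p = 0.0225), a call lost without RA plus VitC replicate 1 (0.24, edgeR adjusted p = 0.205) or without either TGFβ library (0.33 and 0.37, edgeR adjusted p 0.101 and 0.0768). Slc2a3 was at 168 and 179 CPM with all agents, against 197 and 183 CPM with TGFβ alone, and did not pass (-0.16 ± 0.28, edgeR adjusted p = 0.683).

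Slc2a6 had the largest log2 fold changes of the 4 members when either agent was added to the other. Retinoic acid added to TGFβ and VitC lowered it to 0.673 and 0.430 CPM, against 4.25 and 3.14 CPM with TGFβ and VitC, a 6.67-fold difference (log2 fold change -2.74 ± 0.41, edgeR adjusted p = 0.000292; 15.1% of all genes passed). It was the only one of the 4 to pass there, while Slc23a2 differed by 0.07 ± 0.11, Slc2a1 by -0.21 ± 0.14 and Slc2a3 by -0.21 ± 0.28. Vitamin C added to TGFβ and RA gave -1.16 ± 0.50 (95% interval -2.23 to -0.08, edgeR adjusted p = 0.198), and none of the 4 passed, where 7.54% of all genes did; at an unadjusted p of 0.05 only Slc2a6 would have, and DESeq2 called none of them. In that comparison Slc23a2 differed by 0.22 ± 0.11, Slc2a1 by -0.07 ± 0.14 and Slc2a3 by 0.16 ± 0.28.

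The test of the difference between the vitamin C effects with and without RA passed for none of the 4, and for 0.0177% of all genes. For Slc2a6 that difference was -1.76 ± 0.59 (95% interval -3.03 to -0.50; edgeR adjusted p = 0.708). For Slc2a1 it was 0.45 ± 0.19 (edgeR adjusted p = 0.898), and these were the 2 members under an unadjusted p of 0.05; DESeq2 called none of the 4. Opposite directions of Slc2a6 in the separate comparisons were not shown to differ after adjustment. The comparisons among the iTreg cultures share libraries and are not independent of each other.

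**Figure D3:**
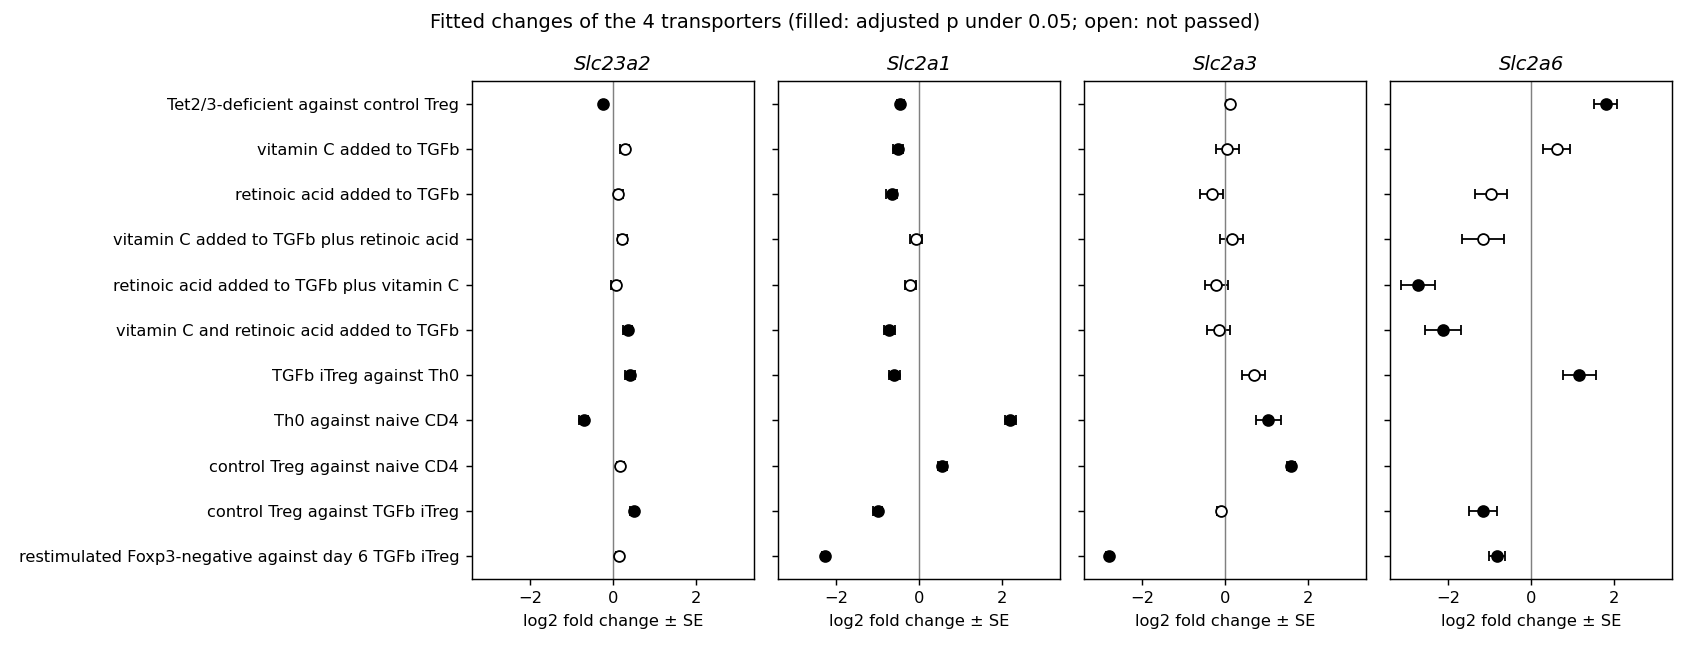
Fitted log2 fold change (horizontal axis, points) with its SE (whiskers) of each carrier in 11 comparisons; filled points have an edgeR adjusted p under 0.05. Slc2a1 lies left of 0 for each agent added to TGFβ, Slc2a6 spans the widest range among the cultures, and Slc2a6 is not drawn against naive cells, where it had 0 and 2 counts.

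Many glycolysis genes were lower in these cultures. Of 20 tested, 12 fell and none rose with VitC added to TGFβ (median log2 fold change -0.45), 15 fell with RA (-0.59) and 16 fell with both (-0.87). Of all genes, 16.8%, 16.5% and 37.5% passed in these comparisons, in either direction. With VitC added to TGFβ and RA, 4 fell and 16 did not pass (-0.27), where 7.54% of all genes passed. With RA added to TGFβ and VitC, 11 fell (-0.48), where 15.1% of all genes passed. Slc16a3, the lactate exporter MCT4, averaged 39.4 ± 14.7 CPM with TGFβ and VitC and 11 ± 1.56 CPM with all agents, against 93.9 ± 20.9 CPM with TGFβ alone. Tpi1, a glycolytic isomerase, averaged 359 ± 81.6 CPM with TGFβ and VitC and 212 ± 5.45 CPM with all agents, against 631 ± 85.3 CPM with TGFβ alone (log2 fold changes -0.84 ± 0.16 and -1.60 ± 0.17, edgeR adjusted p = 0.00606 and 2.26e-05).

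Regulators of glucose uptake rose more often than they fell in these cultures. With VitC added to TGFβ, 4 of 8 rose and none fell, where 16.8% of all genes passed. With both agents 5 rose and 2 fell, where 37.5% of all genes passed. Txnip averaged 491 ± 47.7 CPM with TGFβ and VitC and 639 ± 40.9 CPM with all agents, against 329 ± 14.2 CPM with TGFβ alone (0.55 ± 0.09 and 0.93 ± 0.09, edgeR adjusted p = 0.00109 and 2.41e-06). Tbc1d4 averaged 60.7 ± 0.840 CPM with TGFβ and VitC, against 28.4 ± 3.86 CPM with TGFβ alone (1.07 ± 0.17, edgeR adjusted p = 0.00137). Of 10 tested vitamin C recycling genes, Cyb561d1 rose and Cyb561 and P4hb, a protein disulfide isomerase that can reduce dehydroascorbate, fell with VitC added to TGFβ.

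Summed markers of other cell types and of proliferation also differed between these cultures. Some sums came mostly from a single gene. Adgre1 averaged 20.5 CPM within a myeloid sum of 22.8 CPM with all agents. Hbb-b1 averaged 40.6 CPM within an erythroid and platelet sum of 41 CPM with TGFβ alone. Sums of the 6 proliferation markers were 1970 to 2200 CPM with all agents, 2690 to 3110 CPM with TGFβ and VitC and 2450 to 2730 CPM with TGFβ and RA, against 3350 to 3670 CPM with TGFβ alone. Sums of 7 erythroid and platelet markers that include haemoglobin Hbb-b1 were 1.35 to 2.41 CPM with all agents, 18.2 to 26.8 CPM with TGFβ and VitC and 0.945 to 3.81 CPM with TGFβ and RA, against 36.5 to 45.5 CPM with TGFβ alone, while the red cell gene Slc4a1 and the platelet genes Pf4 and Ppbp were at 0 in all of them. Sums of the 10 myeloid markers were 21 to 24.6 CPM with all agents, 15.7 to 19.9 CPM with TGFβ and VitC and 3.4 to 4.25 CPM with TGFβ and RA, against 8.2 to 11.1 CPM with TGFβ alone, with Csf1r, Cd14, S100a8 and S100a9 at 0 in all of them. Sums of the 6 NK and CD8 T cell markers were 39 to 42.1 CPM with all agents, 23.3 to 28.2 CPM with TGFβ and VitC and 11 to 11.6 CPM with TGFβ and RA, against 13.2 to 15.4 CPM with TGFβ alone, with Ncr1, Klrb1c, Klre1 and Klra8 at 0 in all of them. The part of these differences in the Slc2a1 result was not tested.

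Activation of naive cells changed Slc2a1, Slc2a3 and Slc23a2, in a comparison where 72% of all genes passed. Slc2a1 was at 180 and 265 CPM in Th0 cells, against 49.0 and 45.6 CPM in naive cells, a 4.60-fold rise (log2 fold change 2.2 ± 0.14, edgeR adjusted p = 2.27e-09). Slc2a3 was at 71.4 and 159 CPM in Th0 cells, against 54.5 and 55.0 CPM in naive cells (1.04 ± 0.30, edgeR adjusted p = 0.0122), a call lost without naive replicate 1 (1.04, edgeR adjusted p = 0.0512) and reduced to 0.39 without Th0 replicate 2 (edgeR adjusted p = 0.0107). The ascorbate carrier Slc23a2 fell, with 42.9 and 44.4 CPM in Th0 cells, against 68.5 and 71.1 CPM in naive cells (-0.71 ± 0.12, edgeR adjusted p = 6.18e-05). Slc2a6 had 21 counts in Th0 cells and 2 in naive cells, a CPM ratio of 10.1 with an exact 95% counting interval of 2.47 to 89.0. Slc2a6 passed too, but it cleared the count filter only through cultured groups, so a level lower than in naive cells could not be called. Among listed genes, 18 of 20 tested glycolysis genes and 9 of 10 vitamin C recycling genes rose, while Txnip fell to 200 ± 22 CPM in Th0 cells, against 953 ± 66.2 CPM in naive cells.

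TGFβ iTreg cells differed from Th0 cells in 3 of the 4 members, where 26.1% of all genes passed. Slc23a2 rose (0.42 ± 0.12, edgeR adjusted p = 0.0168), with 60.0 and 59.2 CPM in TGFβ iTreg cells and 42.9 and 44.4 CPM in Th0 cells. Slc2a1 fell (-0.60 ± 0.13, edgeR adjusted p = 0.00403), with 152 and 147 CPM in TGFβ iTreg cells and 180 and 265 CPM in Th0 cells. Slc2a6 rose (1.16 ± 0.40, edgeR adjusted p = 0.0426), with 2.46 and 2.29 CPM in TGFβ iTreg cells and 1.17 and 0.893 CPM in Th0 cells. All of these calls depended on single libraries: without Th0 replicate 2, Slc2a1 no longer passed (-0.31, edgeR adjusted p = 0.0609) and Slc2a3 did (1.37, edgeR adjusted p = 6.58e-06, against 0.69 ± 0.28 and 0.108 with all libraries). Slc23a2 (0.40 to 0.43, edgeR adjusted p 0.0574 to 0.0957) and Slc2a6 (0.97 to 1.38, edgeR adjusted p 0.106 to 0.193) lost their calls without any 1 of the 4 libraries.

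Control Treg cells taken from the mouse differed from naive cells and from TGFβ iTreg cells in some of the carriers. Ages, genotypes and sorts also differed, and TGFβ iTreg cells were activated and cultured. None of these can be told apart from the cell type here. The other iTreg cultures were set against control Treg cells only where they were neighbours in the order of levels given below. Against naive cells Slc2a3 and Slc2a1 were higher, where 54.9% of all genes passed. Slc2a6 passed too, but it cleared the count filter only through control Treg cells, so a lower level could not be called. Slc2a3 rose 3.02-fold (1.59 ± 0.10, edgeR adjusted p = 4.33e-07), with 170 to 201 CPM in control Treg cells and 54.5 and 55.0 CPM in naive cells, and Slc2a1 rose 1.48-fold (0.56 ± 0.11, edgeR adjusted p = 0.0014). Slc2a6 had 68 counts in control Treg cells and 2 in naive cells, a CPM ratio of 10.6 (exact 95% counting interval 2.83 to 89.5), a call lost without naive replicate 1 (edgeR adjusted p = 0.0676). Slc23a2 differed by 0.18 ± 0.08 (edgeR adjusted p = 0.0961). B cell marker sums were 46.1 to 112 CPM in control Treg cells, against 2.12 to 2.9 CPM in naive cells. Myeloid sums were 46 to 75.4 CPM against 8.5 to 9.47 CPM, and proliferation sums 319 to 704 CPM against 212 to 222 CPM. NK and CD8 T cell sums overlapped, at 28.5 to 33.5 CPM and 31.4 to 34.2 CPM. The part of these markers was not tested.

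Against TGFβ iTreg cells, where 61.4% of all genes passed, control Treg cells had more Slc23a2 and less Slc2a1 and Slc2a6. Slc23a2 was at 83.8 to 91.0 CPM in control Treg cells and 59.2 to 60.0 CPM in TGFβ iTreg cells (0.50 ± 0.08, edgeR adjusted p = 0.000501). Slc2a1 was at 68.5 to 86.8 CPM in control Treg cells and 147 to 152 CPM in TGFβ iTreg cells (-1.0 ± 0.10, edgeR adjusted p = 1.27e-05), beside 18 of 21 glycolysis genes that fell and 3 that rose. Slc2a6 fell (-1.17 ± 0.34, edgeR adjusted p = 0.0133), a call lost without TGFβ replicate 1 or 2 (-1.1 and -1.22, edgeR adjusted p 0.0888 and 0.0589), and Slc2a3 did not pass (-0.10 ± 0.09, edgeR adjusted p = 0.343). Sums of the 7 B cell markers were 46.1 to 112 CPM in control Treg cells, against 3.05 to 3.47 CPM in TGFβ iTreg cells, where 5 of the 7 were at 0. Proliferation marker sums were 319 to 704 CPM in control Treg cells, against 3350 to 3670 CPM in TGFβ iTreg cells. Myeloid sums were 46 to 75.4 CPM against 8.2 to 11.1 CPM, erythroid and platelet sums 74.2 to 196 CPM against 36.5 to 45.5 CPM. NK and CD8 T cell sums were 28.5 to 33.5 CPM against 13.2 to 15.4 CPM. The part of these differences was not tested.

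In the second table Slc2a1, Slc2a3 and Slc2a6 fell and Slc23a2 did not pass the test, where 68.8% of all genes passed. Slc2a1 was at 74.0, 73.2 and 65.1 CPM in restimulated Foxp3-negative cells, against 322, 312 and 333 CPM in day 6 TGFβ iTreg cells, and fell 4.81-fold (log2 fold change -2.27 ± 0.06, edgeR adjusted p = 2.16e-13). Slc2a3 was at 63.1, 66.7 and 60.2 CPM in restimulated cells, against 397, 401 and 455 CPM in day 6 cells, and fell 6.96-fold (-2.80 ± 0.07, edgeR adjusted p = 9.12e-14). In each case the groups lay far apart. Of all genes tested, 4.60% changed by more than Slc2a1 and 2.84% by more than Slc2a3.

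Slc2a6 also fell, with 2.30, 2.14 and 2.84 CPM in restimulated cells, against 3.63, 4.94 and 3.61 CPM in day 6 cells (-0.83 ± 0.20, edgeR adjusted p = 0.00216). The ascorbate carrier did not follow: Slc23a2 was at 48.9, 49.5 and 55.7 CPM in restimulated cells, against 45.2, 42.5 and 44.6 CPM in day 6 cells, a difference of 0.15 ± 0.07 (edgeR adjusted p = 0.0634). All 3 restimulated libraries were above all day 6 libraries for Slc23a2. The groups differ in restimulation, in time in culture and in the Foxp3 sort, and these cannot be told apart.

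**Figure D4:**
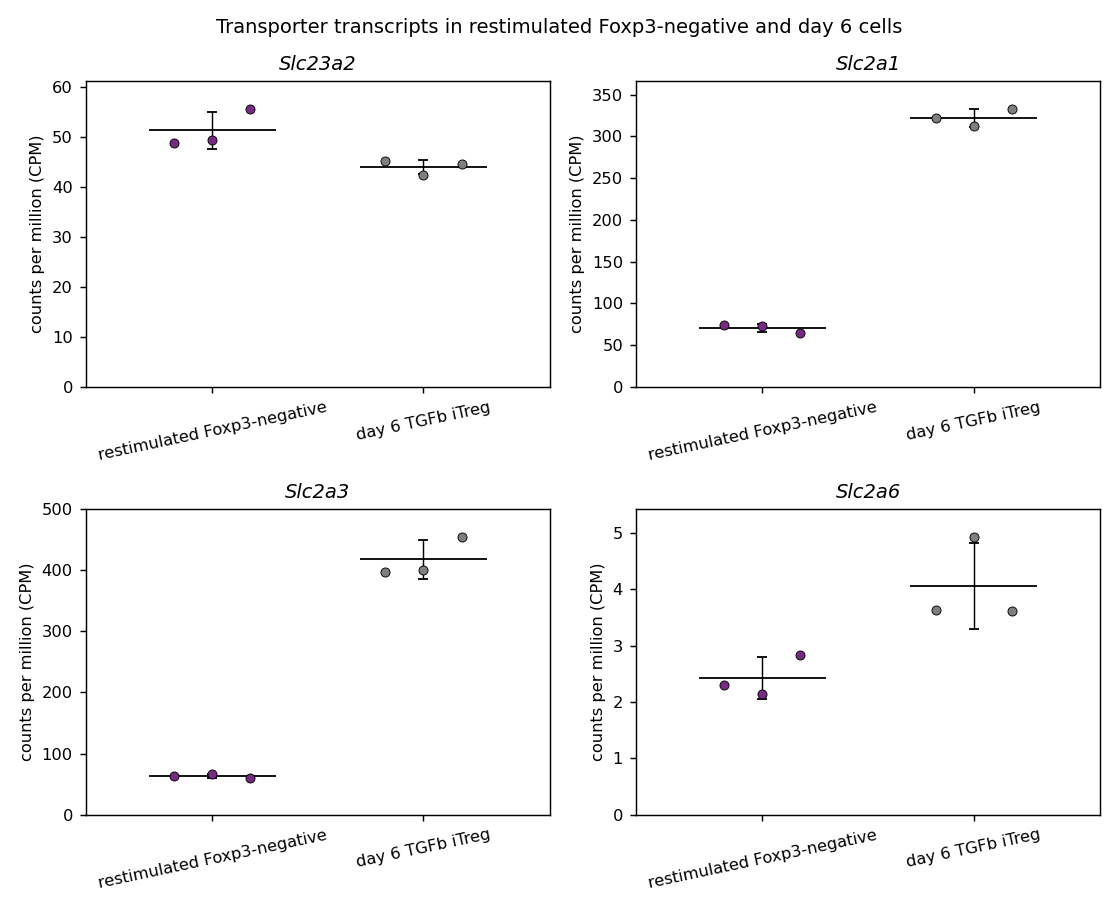
CPM (vertical axis, linear, from 0) of each carrier in the 3 restimulated Foxp3-negative and 3 day 6 TGFβ iTreg libraries (points), with means (bars) and SD (whiskers). Slc2a1 and Slc2a3 lie at 60.2 to 74.0 in restimulated cells and at 312 to 455 in day 6 cells, while Slc23a2 differs little.

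All 19 tested glycolysis genes fell in restimulated Foxp3-negative cells, where 68.8% of all genes passed. Their median log2 fold change was -2.11, against -0.01 over all genes. All 15 tested hypoxia-response genes outside glycolysis fell as well (-2.41). Slc16a3 fell to 9.27 ± 1.40 CPM in restimulated cells, against 335 ± 3.98 CPM in day 6 cells, and Aldoc, an aldolase, fell to 14.5 ± 0.381 CPM, against 335 ± 6.86 CPM (-5.25 ± 0.08 and -4.60 ± 0.07, edgeR adjusted p = 1.37e-15 and 2.78e-16). Vegfa, the angiogenic factor induced by low oxygen, was at 0.239 ± 0.164 CPM in restimulated cells and 33.9 ± 4.42 CPM in day 6 cells. Of the 8 regulators 3 rose and 4 fell, with Tbc1d4 (1.18 ± 0.16) and Txnip (0.59 ± 0.07) among those that rose and Myc (-0.19 ± 0.06) among those that fell.

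The vitamin C recycling list split in restimulated cells: 4 of 10 tested genes rose and 4 fell, where 68.8% of all genes passed. Glrx, a glutaredoxin that can reduce dehydroascorbate with glutathione, rose to 109 ± 3.61 CPM, against 29.8 ± 1.67 CPM in day 6 cells, and Txnrd1, thioredoxin reductase, rose to 212 ± 1.7 CPM, against 94.0 ± 6.20 CPM (1.79 ± 0.06 and 1.1 ± 0.06, edgeR adjusted p = 4.1e-12 and 2.74e-10). P4hb fell (-0.76 ± 0.05). Proliferation markers summed to 1110 to 1520 CPM in restimulated cells, against 1800 to 2230 CPM in day 6 cells, and Hbb-b1 was at 0 in restimulated cells, against 36.6 to 64.0 CPM in day 6 cells, with Slc4a1, Pf4 and Ppbp at 0 in both groups; their part in the carrier results was not tested.

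**Figure D5:**
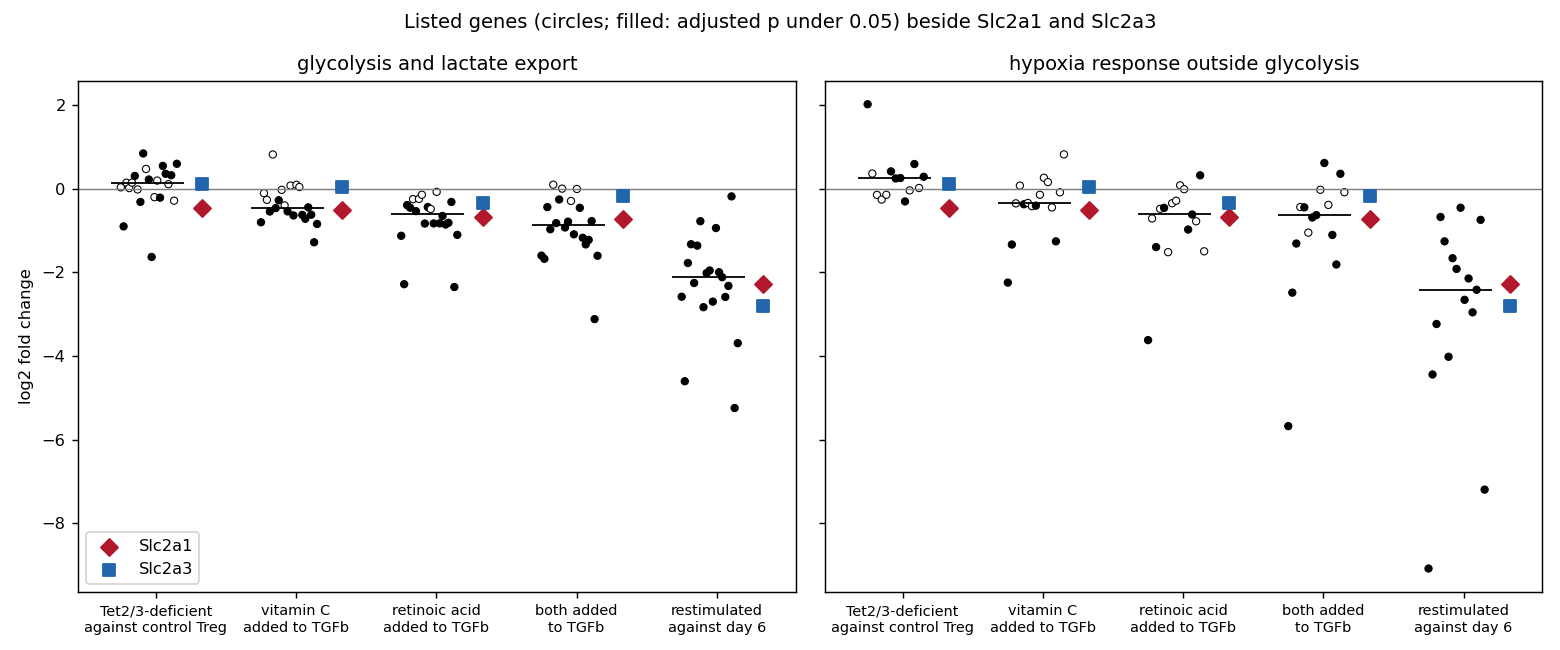
Log2 fold change (vertical axis) of each tested gene of the glycolysis list (left) and the hypoxia-response list (right) in 5 comparisons; circles are genes, filled where the edgeR adjusted p is under 0.05, bars are list medians, and the diamond and square are Slc2a1 and Slc2a3. In restimulated cells Slc2a1 lies at -2.27 and Slc2a3 at -2.80, beside list medians of -2.11 and -2.41. With VitC or RA added to TGFβ, Slc2a1 lies near the glycolysis medians of -0.45 and -0.59, while Slc2a3 lies at 0.05 and -0.33. In Tet2/3-deficient cells Slc2a1 lies at -0.45, below list medians of 0.15 and 0.25.

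Few relatives of the 4 carriers were expressed enough to be tested. Of 9 other facilitative hexose carriers 2 were tested in every comparison, Slc2a8 and Slc2a9, a urate and hexose carrier. Against naive cells, Slc2a8 rose in Th0 cells (1.18 ± 0.18) and Slc2a9 fell (-0.64), and in restimulated cells Slc2a9 rose (0.42 ± 0.08) and Slc2a8 fell (-0.47 ± 0.10). The intestinal and renal ascorbate carrier Slc23a1 and its relative Slc23a3 together summed to between 0.0859 CPM, in a library with all agents, and 1.29 CPM, in a restimulated library. Slc23a1 passed the count filter in the restimulation comparison alone, where it differed by -0.31 (edgeR adjusted p = 0.397), and none of 6 sodium-coupled glucose carriers was tested.

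Ordered by mean CPM in the first table, Slc23a2 was highest in control Treg cells, followed by cells with TGFβ, RA and VitC, Tet2/3-deficient Treg cells, cells with TGFβ and VitC, naive cells, cells with TGFβ and RA, TGFβ iTreg cells and Th0 cells. Neighbours in that order missed the threshold in a fit of all 20 libraries (edgeR adjusted p 0.0941 to 0.835), except that Th0 cells lay below TGFβ iTreg cells (edgeR adjusted p = 0.00984). For Slc2a1 the order ran from Th0 cells through TGFβ alone, TGFβ and VitC, TGFβ and RA, all agents, control Treg and Tet2/3-deficient Treg to naive cells. The neighbours from TGFβ and VitC down to control Treg cells did not pass against each other in that fit, nor did Tet2/3-deficient Treg and naive cells (0.12 ± 0.12, edgeR adjusted p = 0.373). For Slc2a3 the order ran from Tet2/3-deficient Treg cells through TGFβ and VitC, TGFβ alone, control Treg, all agents, TGFβ and RA and Th0 to naive cells, and the steps above Th0 missed the threshold (edgeR adjusted p 0.257 to 0.918). Slc2a6 was highest in Tet2/3-deficient Treg cells and cells with TGFβ and VitC, which overlapped, and lowest in naive cells.

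Over the 8 group means of log2(CPM + 1) in the first table, the gene most like Slc23a2 was Ypel5 (Pearson r 0.990), followed by Irgm2 and D5Ertd579e (both 0.984), and the least like it was Eef1e1 (-0.981). Slc2a1 was most like Fdft1 (0.985), Mvd (0.983) and Slc25a1 (0.981) and least like Tnfrsf14 (-0.988). Slc2a3 was most like Polr2b (0.991), Myadm (0.986) and Eml2 (0.985), and Slc2a6 most like Fancc (0.952), Crem (0.943) and Wwox (0.929). Between the members, Slc23a2 and Slc2a1 had an r of -0.754 and Slc2a3 and Slc2a6 one of 0.751. These are descriptions over 8 points that differ in library depth and in culture, with the genes chosen from 8760 or 8761 of at least 10 CPM.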

How the data were processed

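The authors deposited whole-number exon counts for 21761 genes (92 lack a symbol) in tables of 20 and 6 libraries, and FPKM values that equal the deposited count scaled by library total and exon length. RNeasy Plus and TruSeq stranded mRNA kits were used, per the labels. The submitters' processing notes name the build mm9 and, in no stated order, edgeR 3.26.6, R 3.6.1, TopHat2 2.1.1, Picard 2.5.0, bcl2fastq 2.20.0.442, SAMtools 1.7 and Trim Galore 0.4.2. The counting tool, its strand setting and the annotation release are not given in the sources used here, so reads shared with antisense genes cannot be told apart. A deposited RPM table was not used.

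The members, lists, tests and naming rule were chosen with earlier results of these data known. Named were the members in every comparison and, of each list and comparison, up to 3 genes passing in each direction with the largest change and at least 1 CPM, from which those described were chosen after their values were seen. The lists were other hexose, vitamin C and sodium-coupled glucose carriers, vitamin C recycling, glycolysis, regulators of glucose uptake, hypoxia response and cell type markers. Groups came from the sample labels, and for Treg cells sorted from mice from the group in the column names, whose numbers match no single sample. CPM values use raw library totals.

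Counts were tested in R 4.3.3 with edgeR 4.0.16 (TMM factors, filterByExpr, robust quasi-likelihood test, 2-sided) adjusted by Benjamini-Hochberg across every gene tested and called at 0.05. A fit of 12 libraries, with 6 residual degrees of freedom, served the 6 naive and cultured groups; other comparisons used their own libraries. The 2 tables were not pooled. SE is the log2 fold change over the square root of F. The scripts were tested on simulated data. Also tried were RLE factors, DESeq2 1.42.0, the replicate number as a term, dropping the count filter, all 20 libraries in 1 fit, and leaving out each library. Counting intervals are exact at 95% and cover counting error alone. Promoters were read from RefSeq tables by symbol, which matched 3 of the 4 genes.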

Additional observations from a re-analysis of the deposited data

Results flagged for a closer look

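Of 8 groups of 4 libraries examined, 1 per member and genotype, Slc2a6 in Tet2/3-deficient Treg library S8 stood far from the rest: it was at 5.7 CPM, against 3.23 to 3.28 CPM in the other 3 libraries, a gap of 0.976 of the whole range, above Dixon's 95% critical value for 4 samples. Chance gives a gap above that critical value in about 1 of 20 groups. The summed myeloid markers were also highest in S8, at 158 CPM, beside 154 CPM in S7, where Slc2a6 was at 3.23 CPM; their part was not tested.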

How the results depend on the processing

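Of 484 alternative values of the 48 log2 fold changes of the members, 448 kept their direction and their side of the threshold, and for 30 of the 48 every alternative did. The cause was not tested for those that did not. Without control Treg S1 and S3, Slc23a2 in Tet2/3-deficient cells was at -0.20. Slc2a6 in TGFβ iTreg against Th0 cells lost its call with DESeq2 (1.17) and in the fit of all 20 libraries (1.16), where Slc2a3 gained one (0.69). Without a count filter Slc23a2 passed in restimulated cells (0.16). The test of the difference of the vitamin C effects called 2 genes, against 17 with DESeq2 and 25 without a filter.

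The replicate numbers of the labels were checked for pairing. Deviations of same-numbered libraries correlated at 0.0199 to 0.53 over 15 pairs of groups in the first table, 8 of them over 0.1 (0.259 to 0.53 for the 6 pairs of iTreg cultures), and at 0.0711 to 0.237 in the second, where 5 of 6 samples correlated best with their own number, a hint from the data and not from the design. The libraries share only a number. With the replicate block, Slc23a2 passed for vitamin C added to TGFβ (0.29) and for restimulation (0.14), genes called for vitamin C added to TGFβ and RA numbered 1363 against 851, and those for the difference of the vitamin C effects 26 against 2; no other member's call changed.

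Leaving out 1 library at a time, which leaves groups of 2 with a lone library assumed to vary like the other groups, gave the following log2 ranges. With vitamin C added to TGFβ, Slc2a1 was at -0.54 to -0.49 and Slc2a3 at -0.06 to 0.15, with 771 to 1001 genes called against 1900. With RA added to TGFβ, Slc23a2 was at -0.07 to 0.28 (795 to 1898 genes against 1860). With vitamin C added to TGFβ and RA, Slc23a2 was at 0.06 to 0.42 and Slc2a1 at -0.15 to 0.03 (424 to 899 genes against 851). With RA added to TGFβ and vitamin C, Slc23a2 was at -0.05 to 0.17 (819 to 1367 genes against 1706), and with both agents at 0.24 to 0.45 (2811 to 3301 genes against 4233). For TGFβ iTreg against Th0 cells, Slc23a2 was at 0.40 to 0.43, Slc2a1 at -0.85 to -0.31, Slc2a3 at 0.24 to 1.37 and Slc2a6 at 0.97 to 1.38 (1480 to 1945 genes against 2943). Slc2a3 in Th0 against naive cells was at 0.39 to 1.52. The difference of the vitamin C effects was -0.22 to 0.14 for Slc23a2 (1 to 11 genes against 2). Slc2a6 was at 2.22 to 6.97 in control Treg against naive cells, and at -1.28 to -0.99 against TGFβ iTreg cells. Ranked by Spearman's rho, 1 of the 3 genes most like Slc2a1, Slc2a3 and Slc2a6 stayed among the 3. Depth limits Slc2a6 above all, at 5 to 85 counts per library outside naive cells.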
